A study of Mus musculus with 78 samples.

Results

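The tight junction genes of the gut epithelium described here were 10 genes, Cldn2, Cldn3, Cldn4, Cldn7, Cldn8, Cldn15, Cldn23, Ocln, Tjp1 and F11r, taken by symbol from a table of 20673 genes in which each matched 1 row. The table gave FPKM (fragments per kilobase of transcript, scaled to the size of the library; a level per length) for 78 RNA-seq libraries of C57BL/6 mice, of which 36 were colon or cecum and 42 were hippocampus, hypothalamus or peripheral blood mononuclear cells (PBMCs). In mice with circadian rhythm disruption (CRD), day and night were swapped every 3 days over 4 weeks, then 48 h of light alternated with 48 h of darkness for 3 weeks, and constant light followed for 1 week. Control (CON) mice were kept on 12 h of light and 12 h of darkness, and all mice could eat freely. Mice were 18 months or 8 weeks old by the labels, and these do not say whether that was the age before or after the CRD schedule. The colon gave 4 CRD and 5 CON libraries at 18 months and 5 CRD and 4 CON libraries at 8 weeks. The cecum gave 4 CRD and 4 CON libraries at 18 months and 5 CRD and 5 CON libraries at 8 weeks. Sex, hour of collection and the animal behind each library are not given in the sources used here, so p-values measure only the spread between these libraries.

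Tight junctions seal the space between neighbouring epithelial cells and set which ions, water and solutes pass through it. Claudins are membrane proteins whose strands either close this path or hold selective pores through it. In the gut, Cldn2 forms channels for cations and water and Cldn15 forms channels for sodium, whereas Cldn3, Cldn4 and Cldn8 are known mainly as sealing claudins. Occludin (Ocln) is a membrane protein of the same strands, F11r (JAM-A) is an adhesion molecule of the immunoglobulin family, and Tjp1 (ZO-1) is the scaffold that ties the strands to actin.

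The summed FPKM of the 36 gut libraries ran between 507091 and 590635, and 16957 to 17437 genes were above 0; FPKM does not give the sequencing depth. All 12 epithelial marker genes were above 0 in every gut group. The summed FPKM of 4 Y-linked genes was 0.98 to 2.13 in 16 of the 17 gut libraries at 18 months and 39.9 to 85.0 in the 19 at 8 weeks. The exception was CON replicate 5 of the colon at 18 months, at 70.4. Age and sex therefore cannot be told apart in any comparison of 18 months with 8 weeks, and several differences from the colon CON libraries of that age are also given without replicate 5. In the fits without a block, leaving it out ended the calls of Cldn15 for CRD and of Ocln between colon and cecum, and no other member call.

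The members spanned a wide range of levels. Over the 36 gut libraries, Cldn7 had the highest median at 462 FPKM (304 to 691), followed by Cldn3 at 355 FPKM (239 to 451). Cldn7, a claudin also found along the lateral membrane, and Cldn3 overlapped in range. Cldn15 (median 101 FPKM) and F11r (91.6 FPKM) came next and overlapped each other, with ranges of 44.4 to 137 and 70.1 to 120 FPKM. Cldn2 (24.1 FPKM), Cldn23 (23.6 FPKM), Cldn4 (18.9 FPKM), Ocln (17.2 FPKM) and Tjp1 (13.8 FPKM) followed with overlapping ranges. Cldn8 was lowest at a median of 5.40 FPKM (0.53 to 58.8), and its highest library was 111 times its lowest, more than for any other member. F11r varied least, with its highest library 1.71 times its lowest.

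**Figure D1:**
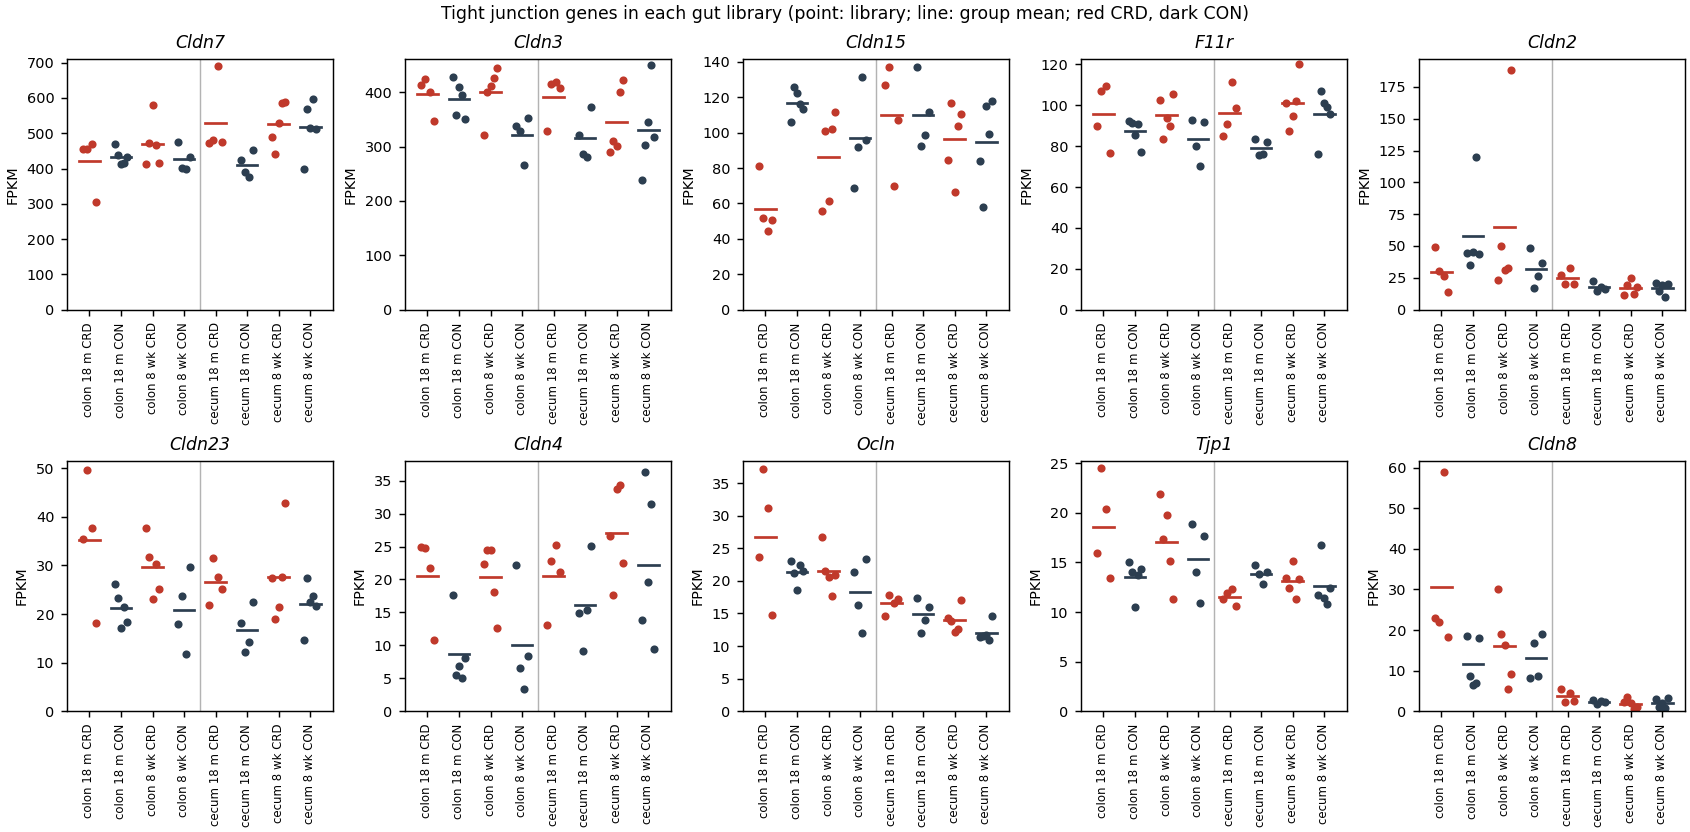
FPKM (y axis, linear, from 0, a separate scale in each panel) of the 10 genes in each of the 36 gut libraries, by group on the x axis, with colon left of the grey line and cecum right of it. Points are libraries and lines are group means; Cldn15 sits between 44.4 and 81.2 FPKM in colon CRD libraries at 18 months and between 106 and 126 FPKM in the matching CON libraries.

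Outside the gut, Cldn4, Cldn7, Cldn8 and Cldn23 had medians of 0.40 FPKM or less in hippocampus, hypothalamus and PBMCs. Tjp1 had a hypothalamus median of 13.4 FPKM (10.7 to 18.1, 19 libraries) and a hippocampus median of 12.7 FPKM (7.28 to 16.3, 19 libraries), both medians within its gut range, but 0.09 to 0.14 FPKM in the 4 PBMC libraries. F11r was detected in all of them, with medians of 5.86 FPKM in hippocampus, 3.78 FPKM in hypothalamus and 11.1 FPKM in PBMCs. Ocln had medians of 3.74 FPKM in hippocampus and 0.04 FPKM in PBMCs. Cldn2 had a median of 8.61 FPKM in hippocampus (0.33 to 15.6) and of 0.26 FPKM in hypothalamus. Cldn3 had a hippocampus median of 1.56 FPKM and Cldn15 a PBMC median of 1.87 FPKM.

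The table held 30 claudin genes, 23 of which were not members. Only 5 of these 23 averaged 0.5 FPKM or more in the gut, led by Cldn12 at 12.6 FPKM and Cldn5, an endothelial claudin, at 4.33 FPKM. Cldn7 made up 41.2% ± 1.87 of the summed claudin FPKM in colon CRD libraries at 18 months and 40.9% ± 2.34 in the CON libraries (SD, n = 4 and 5). Cldn3 made up 39.3% ± 3.40 in CRD and 36.5% ± 1.92 in CON. Together the pore-forming Cldn2 and Cldn15 made up 8.51% ± 2.33 in CRD and 16.4% ± 2.99 in CON, and the 2 groups did not overlap (6.52% to 11.9% against 13.2% to 21.3%). Without CON replicate 5 the CON share was 16.6% ± 3.41 (n = 4), over the same range. At 8 weeks the same share of the colon was 13.3% ± 6.60 in CRD and 13.8% ± 2.96 in CON (n = 5 and 4), with overlapping ranges. In the cecum it was 12.2% ± 3.16 in CRD and 14.0% ± 1.80 in CON at 18 months (n = 4 each), also overlapping. These shares hold Cldn15 itself and are given as a description, with no test.

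**Figure D2:**
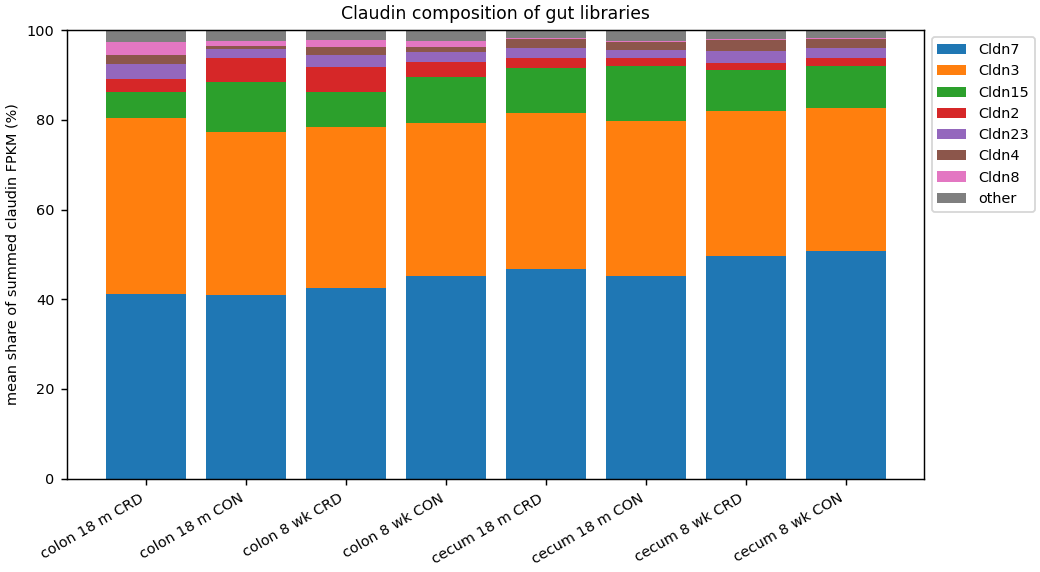
Mean share (y axis, percent) of each member claudin in the summed FPKM of all 30 claudin genes, by group (x axis), with the 23 others in grey. Cldn7 and Cldn3 take the most in every group; the Cldn15 share is 5.66% in colon CRD at 18 months and 11.03% in colon CON.

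Cldn15 (chromosome 5, 136966616 to 136975858, plus strand, GRCm38) was the only member called for CRD against CON, and only in the colon at 18 months. In the colon at 18 months it had 81.2, 51.8, 44.4 and 50.7 FPKM in CRD libraries, against 106, 126, 123, 116 and 113 FPKM in CON libraries. Every CRD library lay below every CON library, with CRD replicate 1 nearest to them. The group means were 57.0 ± 16.5 FPKM in CRD and 117 ± 7.71 FPKM in CON (SD, n = 4 and 5). On the log2(FPKM + 1) scale the difference, CRD minus CON, was -1.06 ± 0.22 (SE), with a 95% interval of -1.52 to -0.60 and an adjusted p of 0.0382 by limma over 14072 genes. Cldn15 was the 1 member called, and 0.54% of all genes tested were called. In bulk tissue, fewer cells of a type and less RNA per cell cannot be told apart.

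The Cldn15 call rested on the full set of libraries. Left out in turn, CRD replicates 3, 4 and 5 gave adjusted p of 0.128, 0.134 and 0.0744, and CON replicates 1 to 5 gave 0.0559, 0.0962, 0.104, 0.0829 and 0.0618. The difference itself stayed between -1.24 and -0.95, and the call held in 1 of 9, without CRD replicate 1 (adjusted p = 0.0117), where 3.34% of all genes were called. The call also ended with no filter on low genes (adjusted p = 0.0542) and with the epithelial marker score as a term (-0.96, adjusted p = 0.0677).

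Markers of other cells differed between some of these libraries. The 8 smooth muscle markers summed to 15875 FPKM in CRD replicate 5 and to 2639 to 4735 FPKM in the other 3 CRD libraries, against 2711 to 5283 FPKM in CON libraries. The 7 absorptive colonocyte markers summed to 7410 to 10759 FPKM in CRD and 9068 to 14384 FPKM in CON, a sum in which Car1 weighs heavily. Car1, a carbonic anhydrase, averaged 2130 FPKM in CRD and 7453 FPKM in CON (log2 difference -1.78). The other 6 markers had positive differences, and the median of the 7 was 1.07 (-1.78 to 2.69). By limma, 5 of the 7 had an unadjusted p under 0.05, as did 2504 of all 14072 genes tested. None of the 7 was called, and none was at 0. The 6 crypt markers summed to 57.9 to 115 FPKM in CRD and 87.8 to 141 FPKM in CON. Their part in the Cldn15 difference was not tested.

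The promoter window of Cldn15 is shown because this gene was the only member called for CRD. Those of Cldn2, Cldn4 and Ocln, which differed between colon and cecum below, are also shown. RefSeq windows (GRCm38.p6, 250 bases before to 50 after a start) were found for 8 of the 10 members, and not for Cldn8 and Cldn23. They were searched on both strands for the E-box CACGTG, bound by clock factors, the GC box GGGCGG, the CDX core TTTATG and the TATA box TATAAA, each counted separately. Over all 32851 windows, 7.15% hold the E-box, 35.7% the GC box, 11.9% the CDX core and 13.6% the TATA box. Capitals mark the matches.
Cldn15, chr5:136967619-136967918, plus strand: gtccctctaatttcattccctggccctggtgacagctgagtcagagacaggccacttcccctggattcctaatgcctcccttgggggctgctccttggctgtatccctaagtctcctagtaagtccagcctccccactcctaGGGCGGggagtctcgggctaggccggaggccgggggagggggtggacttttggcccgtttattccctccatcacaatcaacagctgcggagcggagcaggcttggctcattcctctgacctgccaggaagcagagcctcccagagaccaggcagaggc
Cldn2, chrX:139800558-139800857, plus strand: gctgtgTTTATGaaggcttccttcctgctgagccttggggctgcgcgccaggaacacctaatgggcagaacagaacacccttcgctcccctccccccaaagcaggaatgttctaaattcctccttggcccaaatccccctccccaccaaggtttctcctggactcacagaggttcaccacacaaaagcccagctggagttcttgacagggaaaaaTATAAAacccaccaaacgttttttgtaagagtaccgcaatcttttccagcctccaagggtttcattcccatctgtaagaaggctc
Cldn4, chr5:134946885-134947184, minus strand: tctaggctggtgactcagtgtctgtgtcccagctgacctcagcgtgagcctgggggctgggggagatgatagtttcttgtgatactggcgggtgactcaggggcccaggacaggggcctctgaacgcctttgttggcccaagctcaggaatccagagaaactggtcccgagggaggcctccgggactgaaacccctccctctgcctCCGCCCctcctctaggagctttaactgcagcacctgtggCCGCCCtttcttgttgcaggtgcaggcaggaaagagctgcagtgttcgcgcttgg
Ocln, chr13:100552669-100552968, minus strand: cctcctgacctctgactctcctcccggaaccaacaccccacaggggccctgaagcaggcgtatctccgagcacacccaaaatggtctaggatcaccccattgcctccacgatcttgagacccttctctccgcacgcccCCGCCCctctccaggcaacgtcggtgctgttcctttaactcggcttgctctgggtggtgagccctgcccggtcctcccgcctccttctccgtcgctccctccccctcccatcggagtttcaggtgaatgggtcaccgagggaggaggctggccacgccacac
The Cldn15 window holds a GC box and the Cldn2 window a CDX core and a TATA box. The Cldn15 window lies wholly inside the gene span given above, so its start is not the first base of that span. The Cldn4 window holds 2 GC boxes and the Ocln window shown 1. A further Ocln window, at another start and not shown, also holds 1 GC box. CACGTG was in none of the members' windows.

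The sealing claudins Cldn4 and Cldn8 of the colon had positive differences in CRD at 18 months that did not pass the threshold. Cldn4 had 25.0, 24.8, 21.7 and 10.8 FPKM in CRD libraries, against 17.6, 5.49, 6.86, 5.01 and 8.08 FPKM in CON libraries. The groups overlapped through CRD replicate 5 and CON replicate 1. The log2 difference was 1.23 ± 0.41, with an adjusted p of 0.131. Cldn8, which limits sodium leak in the distal colon, had 22.9, 22.1, 58.8 and 18.3 FPKM in CRD against 18.5, 8.58, 6.42, 6.94 and 18.0 FPKM in CON. CRD replicate 4 stood far above the others, and CRD replicate 5 lay just below CON replicate 1. Its log2 difference was 1.29 ± 0.45 (adjusted p = 0.149). Cldn23 differed by 0.63 ± 0.26 (adjusted p = 0.211) and Cldn2 by -0.90 ± 0.52 (adjusted p = 0.381). Without CON replicate 5 the differences were 1.24 for Cldn4, 1.46 for Cldn8, 0.58 for Cldn23 and -0.96 for Cldn2 (adjusted p = 0.172, 0.143, 0.303 and 0.414). The remaining members lay between -0.06 for Cldn7 and 0.40 for Tjp1. The median of the 10 members was 0.18, against -0.04 over all genes tested.

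At 8 weeks no member was called in the colon, where 0.0142% of 14072 genes were (2 genes by limma, 974 at an unadjusted p under 0.05). Cldn4 had 22.3, 24.4, 24.4, 18.1 and 12.6 FPKM in CRD libraries, against 22.2, 6.58, 3.32 and 8.33 FPKM in CON libraries. CON replicate 2 lay among the CRD libraries and the other CON libraries lay below them. The log2 difference was 1.18 ± 0.41 (adjusted p = 0.617), and that of Cldn3 was 0.32 ± 0.11 (adjusted p = 0.617). Cldn15 had 56.0, 101, 61.5, 102 and 111 FPKM in CRD against 68.7, 92.0, 131 and 96.1 FPKM in CON. Its groups overlapped, with a difference of -0.18 ± 0.22 (adjusted p = 0.874). The other members lay between 0.13 for Cldn7 and 0.63 for Cldn2. With each library left out in turn, the Cldn2 difference ran from 0.13 to 0.87.

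The CRD effect on Cldn15 at 18 months minus that at 8 weeks was -0.87 ± 0.31 in the colon (adjusted p = 0.345), so the 2 ages were not shown to differ. No member was called in this difference, where 0.37% of genes were, and Cldn2 had the largest estimate at -1.53 ± 0.73 (adjusted p = 0.474). Without colon CON replicate 5 at 18 months these were -0.88 for Cldn15 and -1.59 for Cldn2 (adjusted p = 0.333 and 0.465). Cldn2 varied most between colon libraries: it had 23.3, 50.1, 30.9, 32.5 and 188 FPKM in CRD at 8 weeks. A single library, replicate 5, stood apart. With each library left out in turn, the Cldn2 difference of CRD effects between the ages ran from -1.81 to -1.03.

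**Figure D3:**
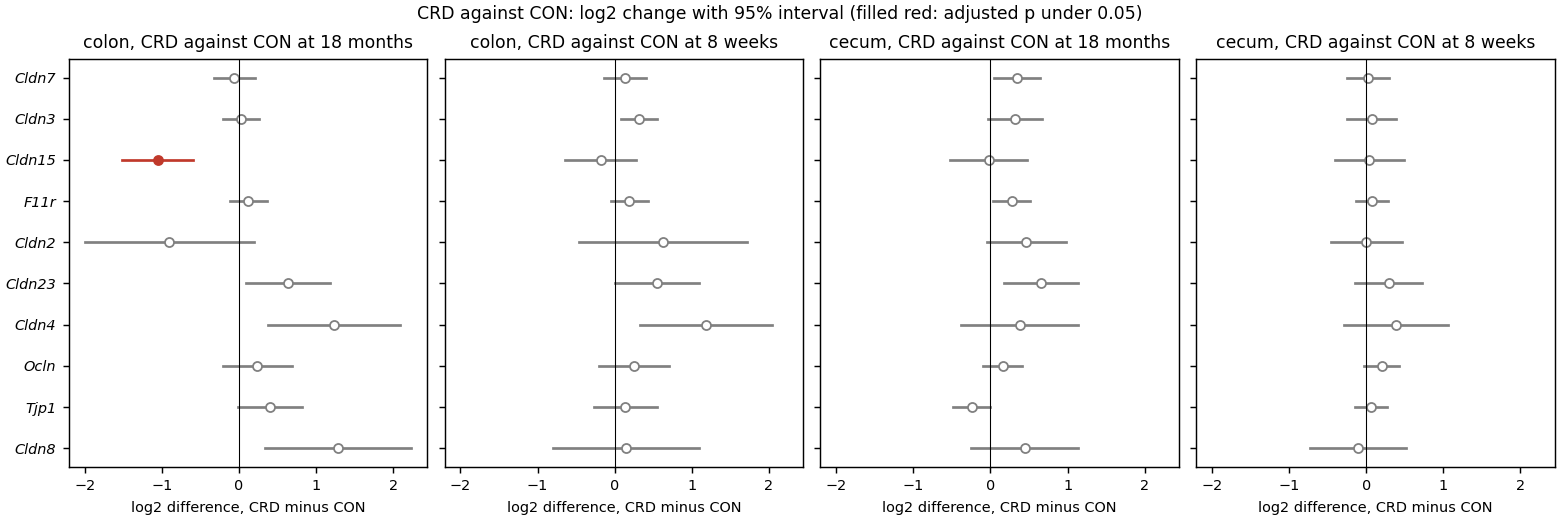
Log2 difference of each member, CRD minus CON (x axis, log2(FPKM + 1)), with its 95% interval as a bar, in colon and cecum at 18 months and 8 weeks. The filled red point is Cldn15 in the colon at 18 months, at -1.06; open points had an adjusted p of 0.05 or more.

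In the cecum no member was called for CRD at either age. At 18 months 0.0291% of 13747 genes were called (4 genes by limma, 2236 at an unadjusted p under 0.05), and at 8 weeks 0.00727% were (1 gene, 709 unadjusted). At 18 months Cldn23, a claudin of differentiated surface cells, had 21.8, 31.6, 27.7 and 25.1 FPKM in CRD libraries, against 18.2, 12.2, 14.3 and 22.5 FPKM in CON libraries. The groups overlapped only through CON replicate 4. The log2 difference was 0.65 ± 0.23 (adjusted p = 0.214). Tjp1 was separated between groups, at 11.4, 11.9, 12.3 and 10.6 FPKM in CRD against 14.7, 13.8, 12.9 and 14.0 FPKM in CON, a difference of -0.25 ± 0.11 (adjusted p = 0.299). Cldn7 and F11r lay higher in all 4 CRD libraries than in any CON library, by 0.35 ± 0.14 and 0.27 ± 0.11 (adjusted p = 0.251 each). The share of all genes separated in this way was not computed, so these separations are given as a description. The median of the members was 0.33, against -0.10 over all genes. Epithelial markers summed to 9909 to 12339 FPKM in CRD and 8465 to 9878 FPKM in CON, without overlap, and all 12 had a positive difference. With the epithelial marker score as a term, the differences were 0.02 for Cldn7, 0.03 for F11r, 0.19 for Cldn23 and -0.28 for Tjp1 (adjusted p = 0.972, 0.949, 0.868 and 0.740). Those of Cldn8 and Cldn2 were 0.94 and 0.63 with the term, against 0.45 and 0.47 without it. Cldn3, Cldn4, Cldn15 and Ocln were at -0.04, -0.16, 0.07 and 0.08, and no member was called. The score itself did not overlap between the groups (9.08 to 9.44 in CRD, 8.83 to 9.07 in CON). The part of epithelial content in these differences was not tested.

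At 8 weeks the cecum differences ran from -0.11 ± 0.29 for Cldn8 to 0.39 ± 0.32 for Cldn4, and Cldn15 differed by 0.04 ± 0.21. The difference of the CRD effects between 18 months and 8 weeks was largest for Cldn8 at 0.55 ± 0.44 and lowest for Tjp1 at -0.31 ± 0.15, with 0 members called and 0.0364% of genes called. The CON libraries serve in these comparisons and in those between ages.

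Between 18 months and 8 weeks in CON mice no member was called in either tissue, where 1.51% of genes were in the cecum (207 genes, 2340 unadjusted) and 0.981% in the colon (138 genes, 2316 unadjusted). In the cecum, Ocln had 17.4, 12.1, 14.0 and 16.0 FPKM at 18 months, against 11.3, 11.5, 11.7, 10.96 and 14.7 FPKM at 8 weeks. The groups overlapped, with a difference of 0.28 ± 0.12 (adjusted p = 0.226). F11r and Cldn7 differed by -0.26 ± 0.11 and -0.33 ± 0.13 (adjusted p = 0.219 and 0.229). In the colon, Cldn3 differed by 0.28 ± 0.11 (adjusted p = 0.223), and by 0.31 without CON replicate 5 at 18 months (adjusted p = 0.184).

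Colon and cecum differed in several members under every condition. The p-values here are from fits that did not pair colon with cecum libraries, unless a block is named. Same-numbered colon and cecum libraries did deviate together (r between 0.139 and 0.599), so the unpaired SE and p-values do not use that pairing. With the replicate number as a block, no member call between colon and cecum was lost. Cldn8 was higher in the colon in all 4 comparisons, and its 18 colon libraries (5.43 to 58.8 FPKM) lay above its 18 cecum libraries (0.53 to 5.37 FPKM). In CRD mice at 18 months it had 22.9, 22.1, 58.8 and 18.3 FPKM in colon, against 5.37, 2.22, 4.49 and 2.52 FPKM in cecum. The groups were far apart, and the log2 difference, colon minus cecum, was 2.66 ± 0.42 (adjusted p = 1.99e-05). It was 1.82 ± 0.40 in CON at 18 months (adjusted p = 0.00144), 2.47 ± 0.38 in CRD at 8 weeks (adjusted p = 1.05e-05) and 2.22 ± 0.40 in CON at 8 weeks (adjusted p = 0.000135). All genes called made up 37.3%, 20.1%, 33.5% and 25.2% in these comparisons in that order, and the members called were 4, 3, 3 and 3 of 10, so that their shares stand near the background. Without colon CON replicate 5 the CON difference of Cldn8 at 18 months was 1.65 (adjusted p = 0.00626).

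Ocln was also called higher in the colon each time. In CRD mice at 8 weeks it had 26.7, 21.5, 20.6, 17.7 and 20.9 FPKM in colon, against 14.3, 13.9, 12.2, 12.6 and 17.0 FPKM in cecum. Every colon library lay above every cecum library, and the difference was 0.58 ± 0.17 (adjusted p = 0.00737). It was 0.58 ± 0.19 in CRD at 18 months (adjusted p = 0.014), 0.50 ± 0.18 in CON at 18 months (adjusted p = 0.0402) and 0.53 ± 0.18 in CON at 8 weeks (adjusted p = 0.0244). The CON call at 18 months ended without cecum replicates 2, 3 and 4 (adjusted p = 0.135, 0.0981 and 0.0549) and without colon replicates 1, 2, 4 and 5 (0.0824, 0.0637, 0.0666 and 0.0634). It also ended with the epithelial score as a term (0.0821). The CON call at 8 weeks ended without colon replicates 2 and 5 (0.0917 and 0.116) and cecum replicate 4 (0.0537), and the CRD call at 18 months without colon replicates 3 and 4 (0.0918 and 0.0552).

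Cldn2 was called higher in the colon in CON mice at 18 months and in CRD mice at 8 weeks. In CON at 18 months it had 44.4, 35.1, 45.0, 120 and 43.4 FPKM in colon, against 22.1, 15.0, 17.6 and 16.1 FPKM in cecum. All colon libraries were above all cecum libraries, and replicate 4 of the colon stood apart. The difference was 1.51 ± 0.42 (adjusted p = 0.0101), and 1.57 without colon replicate 5 (adjusted p = 0.0143). In CRD at 8 weeks, with the colon library at 188 FPKM, it was 1.46 ± 0.40 (adjusted p = 0.0049), and without that library 0.97 (adjusted p = 0.0226). It was 0.14 ± 0.44 in CRD at 18 months (adjusted p = 0.828) and 0.84 ± 0.42 in CON at 8 weeks (adjusted p = 0.145).

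Cldn4 was called lower in the colon once, in CON mice at 8 weeks. It had 22.2, 6.58, 3.32 and 8.33 FPKM in colon, against 13.9, 36.4, 19.6, 31.4 and 9.47 FPKM in cecum. The groups overlapped through colon replicate 2 and cecum replicates 1, 3 and 5. The difference was -1.18 ± 0.39 (adjusted p = 0.0254), and the call ended without colon replicates 3 and 4 (0.0695 and 0.145) and cecum replicates 2 and 4 (0.0816 and 0.0755). In CON at 18 months the difference was -0.89 ± 0.39 (adjusted p = 0.109); it was called without colon replicate 1 (0.0403, with 15.8% of all genes called) and with the epithelial score as a term (0.003, with 22.6%), and was -0.90 without colon replicate 5 (0.139).

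Cldn15 was lower in the colon than in the cecum in CRD mice at 18 months. It had 81.2, 51.8, 44.4 and 50.7 FPKM in colon, against 127, 137, 70.0 and 107 FPKM in cecum. Cecum replicate 4 lay below colon replicate 1. The difference was -0.93 ± 0.24 (adjusted p = 0.00337), against 0.10 ± 0.23 in CON mice of that age (adjusted p = 0.79; 0.11 without colon replicate 5, adjusted p = 0.792). Tjp1 was higher in the colon in the same mice, at 15.9, 24.6, 20.4 and 13.4 FPKM against 11.4, 11.9, 12.3 and 10.6 FPKM in cecum, without overlap. Its difference was 0.61 ± 0.17 (adjusted p = 0.00575).

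With the replicate number as a block, which pairs colon and cecum, Cldn7 was called lower in the colon in CRD at 18 months (-0.33, adjusted p = 0.0228) and in CON at 8 weeks (-0.30, adjusted p = 0.0458). Tjp1 was called higher in CRD at 8 weeks (0.33, adjusted p = 0.0341). Under the block 47.4%, 33.8% and 41.9% of all genes were called in these comparisons in that order. Without the block the adjusted p of these members was 0.0586, 0.133 and 0.0939. F11r was not called in any of the 4 comparisons, with differences between -0.19 ± 0.11 and 0.14 ± 0.11. Markers of other cells also differed between colon and cecum, and their counts follow for CRD at 18 months, CON at 18 months, CRD at 8 weeks and CON at 8 weeks in that order. Without the block, as for these counts, 37.3%, 20.1%, 33.5% and 25.2% of all genes were called in that order. Of the 8 enteric neuron and glia markers, 8, 7, 8 and 8 were called higher in the colon, and of the 6 goblet cell markers 5, 3, 4 and 5 were. Of the 6 fibroblast markers 6, 1, 6 and 4 were higher, of the 6 endothelial markers 4, 0, 5 and 0, and of the 8 smooth muscle markers 3, 0, 6 and 0. Of the 10 immune markers 7, 5, 5 and 6 were called lower in the colon, with 1 higher in CRD at 8 weeks, and of the 5 crypt markers tested 5, 1, 3 and 0 were lower. Of the 7 absorptive colonocyte markers 2 were higher each time and 1, 4, 2 and 2 were lower, and of the 12 epithelial markers 1, 1, 2 and 1 were higher and 1, 0, 0 and 1 lower. None of these lists had a gene at 0 in every library of a group. The part of cells other than epithelium in the member differences was not tested.

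**Figure D4:**
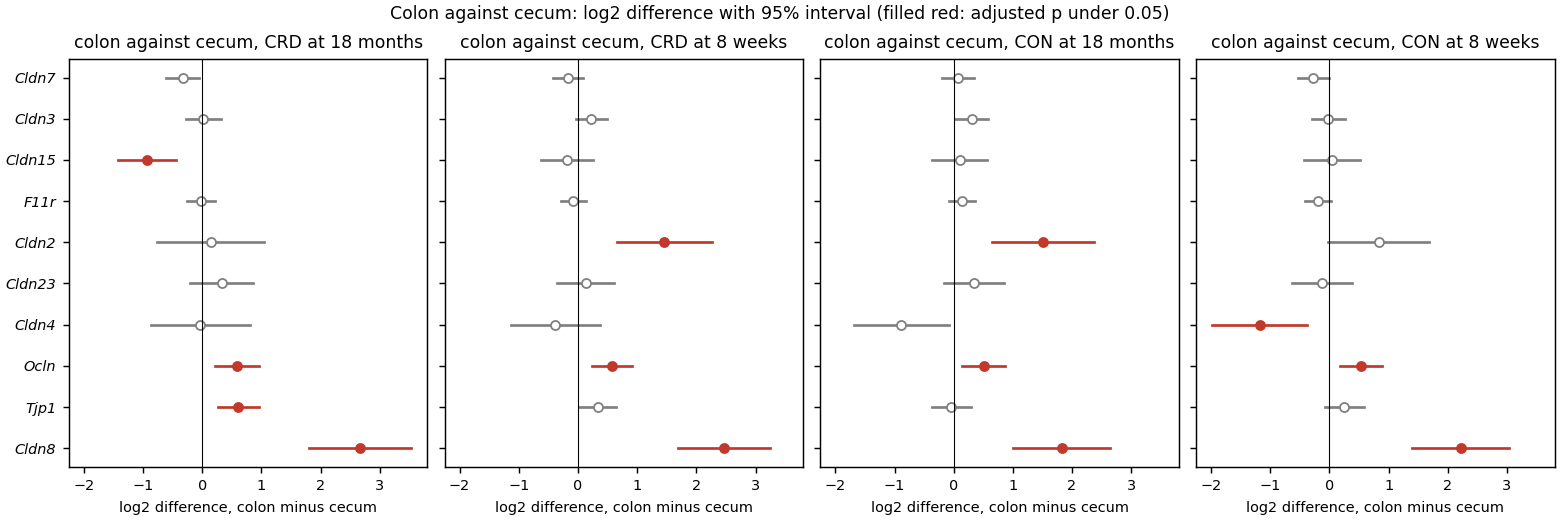
Log2 difference of each member, colon minus cecum (x axis, log2(FPKM + 1)), with its 95% interval as a bar, in CRD and CON mice at 18 months and 8 weeks. Cldn8 and Ocln are filled red in all 4 panels; the other filled points are Cldn2 in CON at 18 months and CRD at 8 weeks, Cldn4 in CON at 8 weeks, and Cldn15 and Tjp1 in CRD at 18 months.

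The CRD effect of the colon minus that of the cecum tested whether the Cldn15 difference belonged to 1 tissue. At 18 months it was -1.03 ± 0.33 for Cldn15 (adjusted p = 0.158), and no member was called where 0.0499% of genes were. With the replicate block it was -1.04 and was called (adjusted p = 0.0342), where 3.53% of genes were called. Without colon CON replicate 5 and without a block it was also -1.04 (adjusted p = 0.173). Tjp1 differed by 0.65 ± 0.23 (adjusted p = 0.182) and Cldn2 by -1.37 ± 0.61 (adjusted p = 0.267). At 8 weeks no member was called and 0% of genes were (0 of 14038 by limma, 98 at an unadjusted p under 0.05); Cldn15 differed by -0.22 ± 0.32.

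Other junction genes were read from lists. Of 27 tight junction partners tested, 0 were called for CRD in either tissue or age. All genes called for CRD made up 0.54% and 0.0142% in the colon at 18 months and 8 weeks. In the cecum they made up 0.0291% and 0.00727%, so that 0 of 27 stands near the background. Between colon and cecum, 8 were higher and 2 lower in CRD at 18 months, and 4 were higher and 2 lower in CON. At 8 weeks 7 were higher and 1 lower in CRD, and 7 were higher and 1 lower in CON. Against 37.3%, 20.1%, 33.5% and 25.2% of all genes called in these comparisons, the partners' shares stand near the background. Jam2, an adhesion molecule related to F11r, averaged 9.01 FPKM in colon and 2.08 FPKM in cecum in CRD mice at 18 months (log2 difference 1.58 ± 0.27, adjusted p = 4.36e-05). Ildr1, a protein of tricellular junctions, averaged 96.1 FPKM in colon and 182 FPKM in cecum there (-0.92 ± 0.18, adjusted p = 0.000276). Of 13 epithelial transcription factors tested in the same mice, 2 were called higher and 2 lower in the colon. Over all genes 37.3% were called. Cdx2, which specifies intestinal epithelium, was among those lower, averaging 75.0 FPKM in colon and 172 FPKM in cecum (-1.22 ± 0.19, adjusted p = 1.58e-05). The part of cell makeup in the differences of Jam2, Ildr1 and Cdx2 was not tested.

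The members fell into loosely shared patterns. Over the 36 gut libraries, after removing group means, Ocln and Cldn23 had r = 0.75, Cldn23 and F11r 0.73 and Ocln and Tjp1 0.68. Cldn15 ran against Tjp1 at r = -0.61 and Cldn4 at r = -0.45. The epithelial marker score had r = 0.88 with Cldn7, 0.68 with Cldn4, 0.02 with Cldn8 and -0.30 with Cldn15. These libraries share tissue and cell makeup, and the values are descriptions. Of 12363 genes compared over all 36 libraries, those most like Cldn15 were Tm2d2 (r = 0.83) and Echs1 (r = 0.82). Those most like Cldn8 were Ano1 and Kif21a (r = 0.92 and 0.91), with r = 0.59 each after removing group means. Ocln was most like Sipa1l3 (r = 0.92) and Osbpl2 (r = 0.91), and Tjp1 most like Mpzl3 (r = 0.92) and Magi3 (r = 0.88), a scaffold protein of junctions. For Cldn3 they were Cdhr5 (r = 0.90) and Prss32 (r = 0.86), for Cldn7 Fam3b (r = 0.85) and Vil1 (r = 0.84), and for F11r Gsdmd (r = 0.83) and Slc44a4 (r = 0.82). For Cldn4 they were Pdlim2 (r = 0.81) and Myo1e (r = 0.79), and for Cldn23 Tspan1 (r = 0.89) and Muc3 (r = 0.88). After removing group means, r lay between 0.68 for Cldn4 with Myo1e and 0.87 for Tjp1 with Mpzl3 among the pairs named here other than those of Cldn8.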

How the data were processed

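The deposited values were FPKM, made by the authors from poly(A)-selected RNA of whole tissue; the submitters' processing notes name HISAT2, Bowtie2, RSEM and DESeq2 with GRCm38, and versions are not given in the sources used here. Depth is unknown, so no interval for counting error is given. From the deposited FPKM, log2(FPKM + 1) was compared between groups by limma (version 3.58.1, R 4.3.3; variance trended on intensity) for genes averaging 0.5 FPKM or more, calling a Benjamini-Hochberg adjusted p under 0.05 over all genes tested. Colon and cecum were each fitted over 18 libraries, and comparisons between them over 36. The fits were tested on simulated data with independent libraries and planted changes larger than any CRD difference of a member here. That test therefore does not cover changes of this size or paired libraries. All 10 members were described. Jam2, Ildr1 and Cdx2 were named as examples among the called genes of the tight junction partners and epithelial transcription factors. Calls among the other claudins and among adherens junction and desmosome genes are not reported here. Members and lists were chosen with earlier results of these data known. Same-numbered colon and cecum libraries deviated together (r between 0.139 and 0.599 in all 17 pairs, all over 0.1), which pairs them by the data; the labels do not state a shared animal. Alternatives were a pseudocount of 0.1, no filter, median-of-ratios scaling, a replicate block, an epithelial score as a term, and leaving out each library. Promoter sequences are from RefSeq. The genes most like Cldn2 are not reported here.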

Additional observations from a re-analysis of the deposited data

Results flagged for a closer look

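Of 80 sets of a member in a group, 10 had a library standing apart by a gap test that chance meets in about 1 of 20 sets. Cldn2 reached 188 FPKM in colon CRD replicate 5 at 8 weeks and 120 FPKM in colon CON replicate 4 at 18 months. Cldn8 reached 58.8 FPKM in colon CRD replicate 4 at 18 months, and Cldn7 was at 304 FPKM in CRD replicate 5 of that group, the library with the most smooth muscle transcript. Cldn4 was at 17.6 FPKM in colon CON replicate 1 and Tjp1 at 10.6 FPKM in colon CON replicate 3, both at 18 months. In the cecum, Cldn3 was at 328 FPKM in CRD replicate 1 and Cldn7 at 691 FPKM in CRD replicate 4 at 18 months. Ocln was at 14.7 FPKM in CON replicate 5 and Tjp1 at 16.7 FPKM in CON replicate 2 at 8 weeks. The CRD effect on Cldn15 at 18 months differed between colon and cecum by -1.04 (log2) when the replicate number was a block.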

How the results depend on the processing

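Of 700 values of single members under the 5 alternatives that keep all libraries, 689 stayed on the same side of the threshold, 3 lost a call and 8 gained one; with libraries left out in turn, 1591 of 1620 stayed, 24 lost a call and 5 gained one. No called value changed sign; 29 and 102 values not called did. The count of members called for CRD in the colon at 18 months was 0 with no filter and 0 with the epithelial score. Over all genes, 58 of 19182 were called with no filter and 32 of 14072 with the epithelial score. With the filter and without the score, 76 of 14072 were. Why the call ended was not tested in either case. Leaving out a library gave 0 to 1. In colon against cecum for CON at 8 weeks, leaving out a library gave 1 to 4 members, with 1 without cecum replicate 4. The shares of all genes called in those fits are not reported here. The CRD effect difference between colon and cecum at 18 months had 1 member called with the replicate block, under which 496 of 14038 genes were called, against 7 without it. Numbers shared by CRD and CON libraries of a tissue did not pair them (r between -0.340 and 0.533), and the block there changed no member call. Median-of-ratios scaling moved the median of all genes for cecum CRD at 18 months to 0.00, against -0.10 unscaled. FPKM without counts limits what low genes such as Cldn8 in cecum can show.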

Other observations

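In the hippocampus, Cldn2 varied with Ttr, a transcript of choroid plexus. In 4 libraries with Ttr under 100 FPKM, a limit chosen after its values were seen, Cldn2 was 0.33 to 0.59 FPKM. In the other 15 libraries, with Ttr between 3000 and 12211 FPKM, it was 4.39 to 15.6 FPKM.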
